A study of Homo sapiens with 40 samples.

Results

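The peaks described here are those of the CENP-A ChIP-Seq sets from SW480 cells, an established human colon cancer line, that touch the centromere bands of the hg19 genome on chromosomes 1 to 22. The bands were taken as fixed intervals on each chromosome, and every peak with at least 1 base in a band was a member, which gave 1251 of 5748 deposited peaks (21.8%). The study asked how the loss of histone chaperones changes where CENP-A is found in these cells. Chromatin was not crosslinked but cut with MNase, an enzyme that digests the DNA between nucleosomes, and the fraction bound by ACA serum, which comes from patients with antibodies to centromere proteins, was sequenced. All 6 conditions were harvested 72 h after siRNA transfection. These were the control siRNA (called untreated in the sample labels), knockdown of DAXX (siDAXX), of HIRA (siHIRA) and of HJURP (siHJURP), and the double knockdowns siHIRA_DAXX and siHJURP_HIRA. There were 4 ChIP libraries for control and for each single knockdown but 2 for each double knockdown, all with a matching input (40 libraries). Only SW480 is in the sets used here, although the paper also reports CENP-A ChIP-Seq in DLD-1 cells. Each condition is deposited as a single merged list of peak starts and ends.

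CENP-A is the variant of histone H3 that marks the active centromere, where the kinetochore is built. In human chromosomes it sits on alpha satellite, a tandem repeat whose unit is close to the length of DNA that 1 nucleosome occupies, and some of these units carry the CENP-B box, the binding site of the protein CENP-B. HJURP is the chaperone that loads CENP-A at centromeres. HIRA and DAXX are chaperones of the variant H3.3, HIRA at genes and regulatory elements and DAXX with its partner ATRX at repeats. The hg19 assembly leaves most of each centromere as a gap of unknown bases, so that a centromere band peak lies in the sequence beside that gap.

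Of the 98.5 Mb within the 22 bands, 23.1 Mb (23.5%) is known sequence, and the band of chromosome 1 holds none. Members were found on 19 chromosomes, and the bands of chromosomes 1, 9 and 13 had none in any set. No member crossed a band edge. The member nearest to an edge lay 7.07 kb inside it and the nearest other peak 4.74 kb outside it. Over the 6 sets, 135 members lay within 100 kb inside an edge and 565 other peaks within 100 kb outside one, so that peaks lay close to the edges on both sides.

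The sequence under the peaks fell into 4 kinds, and a few stretches are printed here because the later results differ between them. Each was read from the GRCh37 assembly, whose chromosomes are those of hg19, on the + strand. The widest peaks with CENP-B boxes were on chromosome 2 beside the gap. Capitals mark matches to the core of the CENP-B box, TTCGNNNNANNCGGG on either strand, where N is any base.
chr2:92324276-92324575: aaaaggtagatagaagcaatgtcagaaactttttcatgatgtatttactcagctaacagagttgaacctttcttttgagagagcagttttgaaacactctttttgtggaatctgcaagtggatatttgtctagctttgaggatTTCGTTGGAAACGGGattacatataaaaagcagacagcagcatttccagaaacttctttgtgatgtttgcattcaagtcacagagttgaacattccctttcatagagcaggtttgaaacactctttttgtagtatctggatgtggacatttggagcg
chr2:92306950-92307249: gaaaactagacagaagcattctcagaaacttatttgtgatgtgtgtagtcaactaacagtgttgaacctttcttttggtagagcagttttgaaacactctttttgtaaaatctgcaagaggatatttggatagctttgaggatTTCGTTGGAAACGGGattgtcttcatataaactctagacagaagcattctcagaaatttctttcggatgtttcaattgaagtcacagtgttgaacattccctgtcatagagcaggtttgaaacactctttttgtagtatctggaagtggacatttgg
chr2:92290930-92291229: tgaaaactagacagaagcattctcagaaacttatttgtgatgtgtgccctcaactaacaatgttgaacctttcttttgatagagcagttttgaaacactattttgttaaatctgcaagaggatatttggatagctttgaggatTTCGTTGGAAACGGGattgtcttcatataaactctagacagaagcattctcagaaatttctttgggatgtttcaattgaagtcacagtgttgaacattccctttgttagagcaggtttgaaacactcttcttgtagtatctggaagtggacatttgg
chr2:92297400-92297699: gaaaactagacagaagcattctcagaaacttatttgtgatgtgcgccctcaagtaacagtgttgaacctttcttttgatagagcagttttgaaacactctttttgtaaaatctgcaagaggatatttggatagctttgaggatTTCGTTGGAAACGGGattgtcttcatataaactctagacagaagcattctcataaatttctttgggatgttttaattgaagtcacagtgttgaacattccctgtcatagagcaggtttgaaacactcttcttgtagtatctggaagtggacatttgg

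These 4 windows are centred on 1 box each and lie in no annotated gene. The stretches at chr2:92306950-92307249 and chr2:92297400-92297699 were equal at 96.7% of their 300 bases when compared without gaps, and the 5 other pairs of these windows at 39 to 73.7%. A pair of successive repeat units from the middle of the widest chromosome 2 site shows the repeat itself, with the box in the first unit and no box in the second.
chr2:92320993-92321163: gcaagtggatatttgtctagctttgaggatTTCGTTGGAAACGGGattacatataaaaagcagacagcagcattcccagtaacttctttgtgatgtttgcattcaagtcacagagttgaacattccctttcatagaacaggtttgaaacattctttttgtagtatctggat
chr2:92321164-92321334: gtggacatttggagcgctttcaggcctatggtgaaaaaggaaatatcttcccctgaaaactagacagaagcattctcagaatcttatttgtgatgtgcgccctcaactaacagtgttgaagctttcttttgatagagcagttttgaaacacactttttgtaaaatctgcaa

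The neighbouring units were equal at 57.9% of positions, and the first unit and the one after the second at 65.5%. The widest site of all, on chromosome 7, and the widest site that was covered in every knockdown but not in control, on chromosome 19, were of the same repeat type without a CENP-B box. The site at chr7:61079030-61085835 held 7 boxes, but none in the widest stretch that all 6 sets shared, whose middle is shown.
chr7:61553136-61553435: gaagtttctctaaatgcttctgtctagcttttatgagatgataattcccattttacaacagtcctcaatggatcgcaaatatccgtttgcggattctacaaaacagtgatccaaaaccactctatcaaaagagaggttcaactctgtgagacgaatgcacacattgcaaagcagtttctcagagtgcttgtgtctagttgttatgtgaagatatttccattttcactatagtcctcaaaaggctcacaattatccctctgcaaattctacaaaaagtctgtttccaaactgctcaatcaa
chr7:61083337-61083636: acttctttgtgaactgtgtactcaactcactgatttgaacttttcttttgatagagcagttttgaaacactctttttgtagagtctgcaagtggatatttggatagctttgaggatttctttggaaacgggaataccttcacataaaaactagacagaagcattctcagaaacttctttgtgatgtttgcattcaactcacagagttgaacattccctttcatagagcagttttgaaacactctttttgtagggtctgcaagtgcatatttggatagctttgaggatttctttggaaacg
chr19:24560010-24560309: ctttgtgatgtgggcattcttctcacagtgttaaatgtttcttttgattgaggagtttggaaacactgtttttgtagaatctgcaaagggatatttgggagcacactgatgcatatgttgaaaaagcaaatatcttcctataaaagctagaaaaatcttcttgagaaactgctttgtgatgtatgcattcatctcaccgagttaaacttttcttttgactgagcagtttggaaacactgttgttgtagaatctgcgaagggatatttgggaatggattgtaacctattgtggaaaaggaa

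The other kinds were arrays of the pentamer CATTC, the unit of human satellites 2 and 3, and the remaining sequence that met neither of the rules given below. Capitals mark runs of at least 2 successive pentamers, which read GAATG on the + strand in the chromosome 10 array. The chromosome 15 stretch is from an intron of HERC2P3, a lncRNA gene in the annotation, and holds none of the motifs. The chromosome 10, 15 and 19 stretches were chosen after their values were seen.
chr10:38817174-38817373: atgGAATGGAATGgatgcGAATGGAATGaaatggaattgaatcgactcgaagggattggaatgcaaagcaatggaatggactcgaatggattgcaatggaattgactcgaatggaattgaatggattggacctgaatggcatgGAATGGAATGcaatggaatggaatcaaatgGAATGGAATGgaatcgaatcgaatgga
chr15:20614866-20615065: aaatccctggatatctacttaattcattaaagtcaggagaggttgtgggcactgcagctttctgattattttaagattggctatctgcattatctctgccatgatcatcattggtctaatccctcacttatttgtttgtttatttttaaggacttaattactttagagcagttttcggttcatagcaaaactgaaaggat

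**Figure D1:**
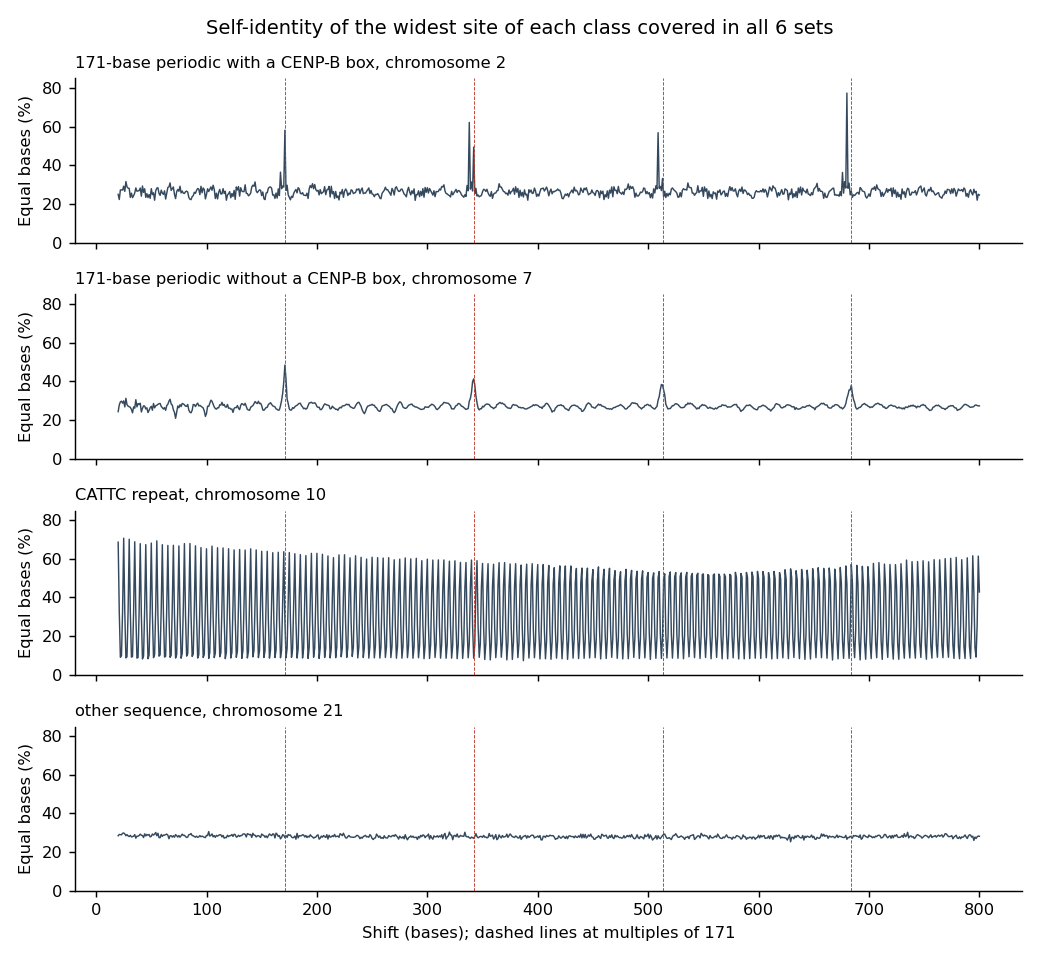
Percentage of bases equal to the base a given number of bases further on (shift on the x axis) in the widest site of each sequence kind that all 6 sets covered. The chromosome 2 and chromosome 7 sites peak near multiples of the alpha satellite unit (dashed lines), and the chromosome 21 site stays near 28.1% throughout. Of the best shifts of the chromosome 10 site in the ranges compared, 25, 170, 340 and 510 are multiples of 5 and 684 is not.

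Comparing each site with itself showed the repeat period directly. At chr2:92315696-92326170 the bases were equal at 58.2% for a shift of 1 alpha satellite unit, and at 77.4% for a shift of 680, which was the best of the shifts near 4 units. Alpha satellite arrays with such multi-unit periods are known as higher-order repeats. At chr7:61532456-61560472 the best value was 48.5% at 1 unit, and the peaks at later multiples were lower, down to 38% at 684 bases. The chromosome 10 array had its best value within 160 bases at a shift of 25 (70.7%). The chromosome 21 site at chr21:11056136-11060405, which overlaps 1 edge of BAGE2 and runs beyond it, had no shift near 1 unit above 29.1%.

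Boxes of 1 form predominated. Over 10 of the 11 chromosomes with a covered box, those whose letters were read for this count, the 6 sets together covered 156 CENP-B boxes of 23 forms when the base on each side of the core is included, 14 of them seen once. The most frequent form made up 60.9% (95 boxes on 6 chromosomes) and the next 16.0% (25 boxes on 6 chromosomes). The forms below are written from the box strand, with the core in capitals.
Most frequent form: tTTCGTTGGAAACGGGa
Next form: cTTCGTTGGAAACGGGa
Form found 6 times on 1 chromosome: cTTCGTTCGAAACGGGt

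The most frequent form lay under control peaks 83 times, under siDAXX peaks 89 times, siHIRA 77, siHJURP 88, siHIRA_DAXX 46 and siHJURP_HIRA 65 times. Most boxes were whole units apart. Of 157 pairs of successive boxes less than 2000 bases apart, over all 11 chromosomes, 134 (85.4%) were within 6 bases of a multiple of the unit length, and 84 of them were at 2 units. The widest chromosome 2 site held 22 boxes, with 8 successive pairs at 338 bases and 7 at 342.

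Windows of 1000 bases centred on members held a CENP-B box in 49.1% of control cases (52 of 106 without unknown bases), in 33.5% after siDAXX, 33.9% after siHIRA, 38.1% after siHJURP, 30.7% after siHIRA_DAXX and 21.8% after siHJURP_HIRA. Over all windows of that length the share was 1.65% in the bands and 0.0413% in the rest of the genome. The pJalpha motif, an alpha satellite motif that takes the place of the box in other units, was in 22.6% of control windows and in 21.6 to 30.2% of knockdown windows, against 5.58% of band windows. Runs of CATTC, counted where a window held at least 2, were in 17% of control windows, 9.38% after siHIRA and 27.5% after siHIRA_DAXX, against 1.05% of band windows. No box overlapped a pJalpha match or a CATTC run in the covered sites. Median GC was 37.1 to 38.6% in these windows and 37.8% over the bands, which are close to each other. A motif match describes the letters in the window and is not a measure of binding. Which of the centromere proteins the serum bound at a given peak was not tested.

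Since each condition is 1 merged list with no score, read count or replicate, there is no replicate error for any value below, and differences between conditions are descriptions that could not be tested. Library depth is not held in the lists. The double knockdowns rest on fewer libraries than the other conditions, and the number of libraries and the knockdown cannot be told apart. Some libraries of control and of each single knockdown have titles that start with Rep, and no double knockdown library does. What that prefix stands for is not given, and it too cannot be told apart from the double knockdown. The paper names both single-end and paired-end sequencing, and read mode was not compared.

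Control peaks covered 147 kb of the bands in 107 peaks. After siDAXX the cover was 255 kb in 179 peaks, 1.73 times control. After siHIRA it was 192 kb in 194 peaks (1.30 times), and after siHJURP 164 kb in 163 peaks (1.11 times). Both double knockdowns covered fewer bases in more peaks, with 83.9 kb in 248 peaks after siHIRA_DAXX (0.570 times control) and 122 kb in 360 peaks after siHJURP_HIRA (0.827 times). The order of the sets by bases is thus not their order by number of peaks.

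**Figure D2:**
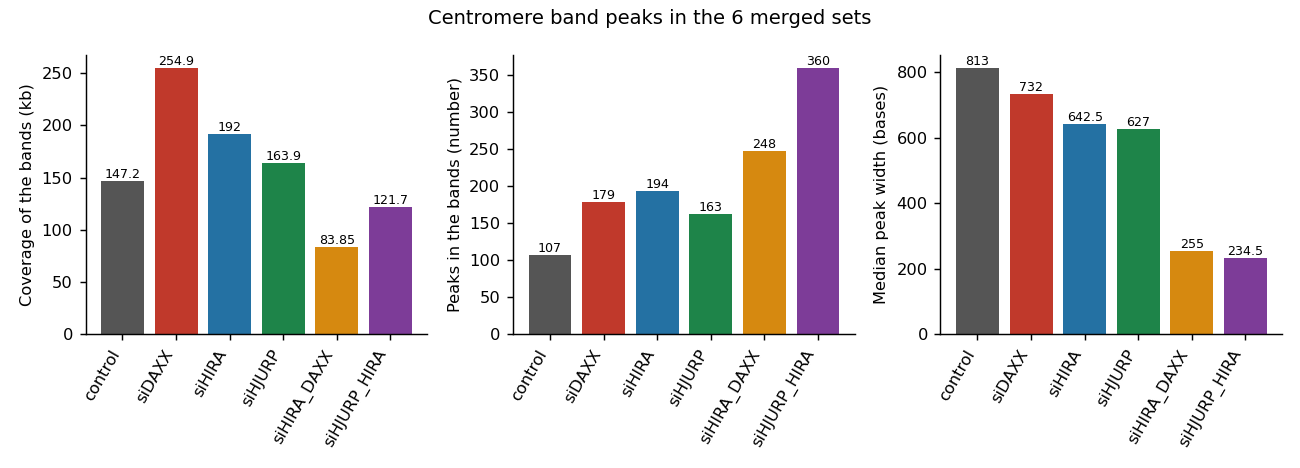
Bases covered in the centromere bands (kb), number of peaks and median peak width (bases) in each of the 6 merged sets; each bar is 1 list, with no error. The siDAXX list covers the most bases (255 kb) and the siHJURP_HIRA list holds the most peaks (360), which are the narrowest by median (234.5 bases).

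Peak width separated the double knockdowns from the rest. The median member was 813 bases wide in control, 732 after siDAXX, 642.5 after siHIRA and 627 after siHJURP, but 255 after siHIRA_DAXX and 234.5 after siHJURP_HIRA. Peaks of at least 1000 bases made up 37.4% of control members, 36.9, 29.9 and 31.3% in the single knockdowns, and 2.82 and 4.44% in the double knockdowns. The same was seen outside the bands, where medians were 736 to 899 bases in control and the single knockdowns and 282 and 290.5 in the double knockdowns, so narrow peaks were not particular to the bands.

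Members made up 26.2% of the control peaks (107 of 408, Wilson 95% interval 22.2 to 30.7%). The share was 18.8% after siDAXX (16.4 to 21.4%), 22.9% after siHIRA (20.2 to 25.8%), 17.3% after siHJURP (15.1 to 19.9%), 24.4% after siHIRA_DAXX (21.8 to 27.1%) and 22.8% after siHJURP_HIRA (20.8 to 24.9%). By bases the bands held 26.6% of the control cover, 18.4% after siDAXX, 21.2% after siHIRA, 14.6% after siHJURP, 21.7% after siHIRA_DAXX and 16.1% after siHJURP_HIRA. The intervals of siDAXX and siHJURP lay below that of control and the others overlapped it. They cover counting error only, and neighbouring peaks of 1 array are not independent.

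The lower shares went with larger gains elsewhere. Peaks outside the bands but within 5 Mb of the assembly gap covered 1.67 times their control bases after siDAXX, 1.36 times after siHIRA and 1.12 times after siHJURP, close to the band values of 1.73, 1.30 and 1.11. Peaks farther away covered 5.68, 2.79 and 5.62 times control. After siHIRA_DAXX the values were 0.570 in the bands, 0.589 in the flanks and 1.16 farther away, and after siHJURP_HIRA 0.827, 0.725 and 3.75. In each of the 5 knockdowns the bands and their flanks had ratios nearer to each other than to the rest of the genome.

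Chromosomes did not move together. Chromosome 19 had the largest gain over control in each single knockdown, with 8.45 kb in control, 51.8 kb after siDAXX, 34.0 kb after siHIRA and 26.3 kb after siHJURP. Chromosome 15 followed, with 2.91 kb in control and 26.3, 16.3 and 14.4 kb in the same order. Chromosome 21 came next, with 11.8 kb in control and 28.7, 25.1 and 21 kb. These 3 chromosomes account for 83.8 kb of the 108 kb added after siDAXX. Their added bases were more than the whole net difference after siHIRA (52.3 kb against 44.8 kb) and after siHJURP (38.6 kb against 16.8 kb). Without them, a comparison chosen after the values were seen, the ratio to control was 1.19 after siDAXX, 0.940 after siHIRA and 0.824 after siHJURP.

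The other chromosomes differed from control in both directions. Chromosome 4 held 9.46 kb in control and 15.5, 12.1 and 10.8 kb after siDAXX, siHIRA and siHJURP. Chromosome 2 held 26.8 kb in control and 29.5, 24.0 and 29.2 kb in the same order. Chromosome 7 had the most control cover, 37.5 kb, with 48.3 kb after siDAXX, 37.6 kb after siHIRA and 17.8 kb after siHJURP. The siHJURP value, 0.475 times control, was the lowest ratio of any chromosome in that set. Chromosome 8 held 15.2 kb in control and 12.6, 12.7 and 10.5 kb in the single knockdowns, and chromosome 17 held 12.3 kb and 12.1, 8.78 and 9.31 kb. On chromosome 18 the values were 8.64 kb in control and 11.1, 9.19 and 9.76 kb.

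The smaller contributors differed in the same uneven way. Chromosome 6 held 3.68 kb in control and 3.27 to 3.87 kb in the single knockdowns, and chromosome 10 held 4.61 kb and 3.13 to 3.37 kb. Chromosome 12 had 1.32 kb in control and 0.590 to 0.861 kb. Chromosome 14 had 1.99 kb in control, 4.16 kb after siDAXX, 0.773 kb after siHIRA and 2.65 kb after siHJURP. Chromosome 20 had 2.45 kb in control and 2.76 to 4.13 kb. Chromosome 5 had no control member and 2.54, 0.595 and 2.15 kb in the single knockdowns. Members on chromosomes 3, 11, 16 and 22 were found in the double knockdowns alone, at most 0.289 kb in 1 set.

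After siDAXX 11 of 15 chromosomes with a member in either list covered more bases than control, and after siHIRA and siHJURP 8 and 9 of 15. After siHIRA_DAXX this held for 5 of 17 and after siHJURP_HIRA for 12 of 19. Chromosome 4 was the one with the largest gain in both double knockdowns, with 9.46 kb in control, 21.4 kb after siHIRA_DAXX and 19.4 kb after siHJURP_HIRA, beside 10.8 to 15.5 kb in the single knockdowns. Chromosome 17 was the one with the smallest ratio after siHIRA_DAXX (0.936 kb, 0.0763 times control), and chromosome 8 after siHJURP_HIRA (1.77 kb, 0.116 times).

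**Figure D3:**
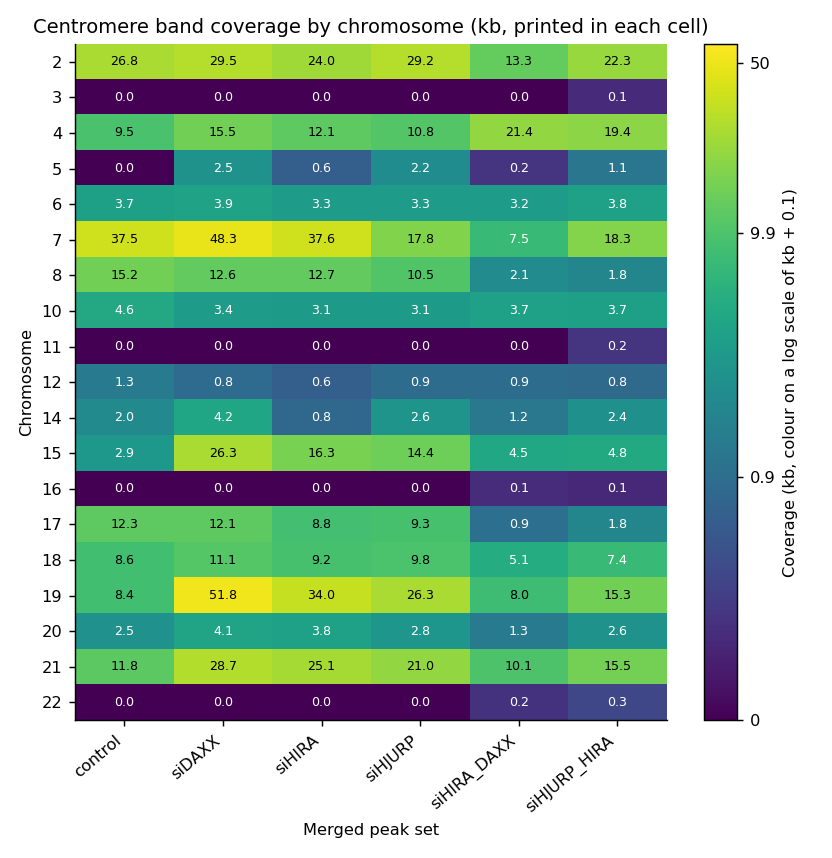
Bases covered in the centromere band of each chromosome (rows) in each merged set (columns), in kb, printed in the cells and coloured on a log scale. Chromosomes 15, 19 and 21 are higher in the 3 single knockdowns than in control, chromosome 4 is highest in the double knockdowns, and chromosomes 8 and 17 are lower in the double knockdowns than in the other sets.

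To describe the members by sequence, each 100-base block of the known band sequence was put in 1 of 4 kinds from the 500 bases around it. A block was periodic when at least 45% of bases equalled the base 1 alpha satellite unit further on, give or take 6 bases, and no shift of 20 to 160 bases did better, and it counted as having a CENP-B box when one lay within 500 bases. Blocks with at least 2 CATTC runs were put in the CATTC kind, and the remainder are called other sequence. Other sequence is thus what met neither rule, and it can hold alpha satellite. The site chr17:22257774-22258727 was mostly of this kind and yet held 3 CENP-B boxes. Periodic sequence with a box made up 1.48% of the known band sequence (343 kb), periodic sequence without one 12.4% (2864 kb), the CATTC kind 1.02% (236 kb) and other sequence 85.1%.

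Control peaks covered 17.8% of the periodic sequence with a CENP-B box, 5.34% of the CATTC kind, 1.21% of the periodic sequence without a box and 0.197% of other sequence. Of the control cover, 41.5% (61.1 kb) was thus periodic with a box, 26.4% (38.8 kb) other sequence, 23.6% (34.7 kb) periodic without a box and 8.54% (12.6 kb) CATTC. Boxes themselves touched control peaks in 162 cases of the 583 in the bands (27.8%), on 10 of 18 chromosomes. All 11 boxes of the chromosome 18 band were under control peaks, and 65 of 98 on chromosome 2, but none of 41 on chromosome 4 or 25 on chromosome 3.

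In the periodic sequence with a box, the single knockdowns were close to control. Its cover was 62.5 kb after siDAXX, 51.0 kb after siHIRA and 57.3 kb after siHJURP, which is 1.02, 0.834 and 0.937 times control. Periodic sequence without a box held 85.8, 61.6 and 38.3 kb, 2.48, 1.78 and 1.11 times control. Other sequence held 88.3, 64.8 and 54.7 kb, 2.28, 1.67 and 1.41 times control. The CATTC kind was at 18.3, 14.6 and 13.6 kb, 1.45, 1.16 and 1.08 times control. Added cover in the single knockdowns lay mostly outside the periodic kind with a CENP-B box nearby, and a test between conditions could not be made.

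In the double knockdowns it was the CATTC kind that stood above control, with 25.2 kb after siHIRA_DAXX (2.00 times) and 23.1 kb after siHJURP_HIRA (1.84 times). The other kinds were all lower than in control. Periodic sequence with a box was at 24.9 kb (0.408 times) and 36.7 kb (0.600 times), periodic sequence without one at 13.7 kb (0.394 times) and 32.5 kb (0.938 times), and other sequence at 20.1 kb (0.517 times) and 29.4 kb (0.758 times). Of the boxes in the bands, 28.3% touched siDAXX peaks, 24.9% siHIRA peaks and 27.3% siHJURP peaks, near the 27.8% of control, and 11.8% (69) siHIRA_DAXX peaks and 17% (99) siHJURP_HIRA peaks. The 65 boxes covered in all 6 sets lay on 8 chromosomes.

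**Figure D4:**
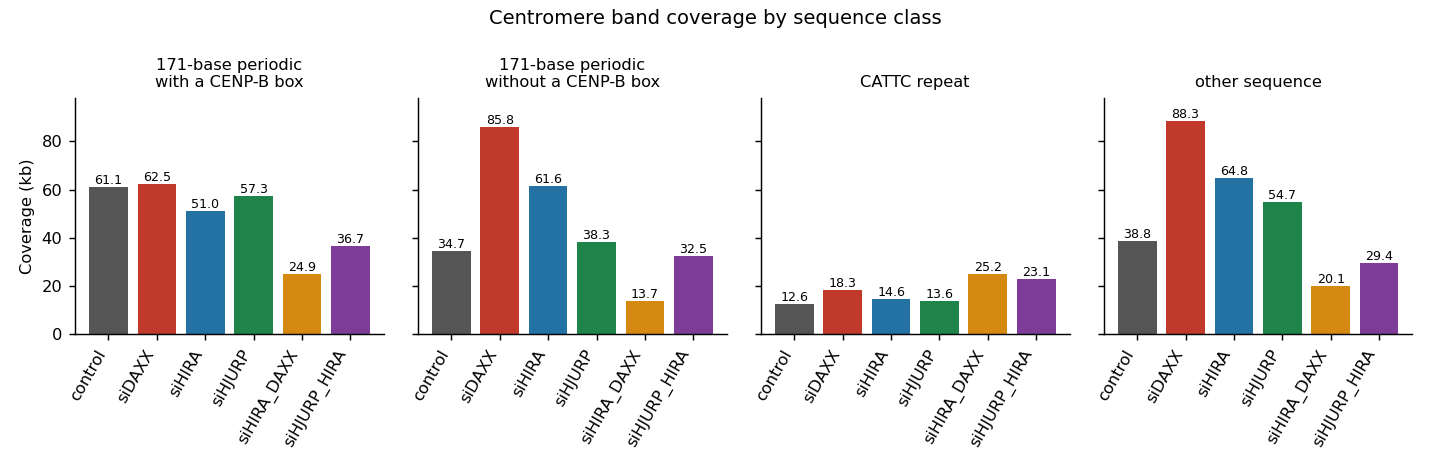
Bases covered in each merged set (kb) in the 4 kinds of band sequence; bars are single lists, with no error. Periodic sequence with a CENP-B box stays at 51.0 to 62.5 kb in control and the single knockdowns, while periodic sequence without a box reaches 85.8 kb and other sequence 88.3 kb after siDAXX.

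The sequence kinds map onto chromosomes. The periodic bases added on chromosome 19 carried no box, going from 2.25 kb in control to 41.5 kb after siDAXX, 26.8 kb after siHIRA and 16.9 kb after siHJURP, while periodic sequence with a box there was at 5.79 kb in control and 6.10, 4.95 and 6.70 kb. On chromosomes 15 and 21 nearly all or all of the cover was other sequence. CATTC cover was almost wholly on chromosomes 4 and 10, and on chromosome 4 went from 9.15 kb in control to 21.3 kb after siHIRA_DAXX and 19.1 kb after siHJURP_HIRA.

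A separate measure took each peak with at least 400 known bases as a whole and called it periodic at 50% identity or more. By it 44.8% of control members were periodic (39 of 87, Wilson 95% interval 34.8 to 55.3%), 34.6% after siDAXX (27.1 to 42.9%), 37.9% after siHIRA (30.4 to 46.0%), 34.4% after siHJURP (26.6 to 43.2%), 41.7% after siHIRA_DAXX (30.1 to 54.3%) and 56.5% after siHJURP_HIRA (45.9 to 66.5%). The interval of each knockdown overlapped that of control. Peaks outside the bands were periodic less often in every set, from 7.66% after siDAXX (5.86 to 9.95%) to 19.1% after siHIRA_DAXX (14.7 to 24.5%), with 19% in control (14.5 to 24.5%). The choice by band selects for alpha satellite, so a difference in this direction was built into the members and is a description only. At most 2 periodic members of a set also held CATTC runs.

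Much of the added cover was in sequence that occurs once in the assembly. Of all 75-base words starting in control members, 81.7% were found at a single place in the genome on either strand, and 2.37% at 10 or more. In periodic sequence with a box the share found once was 70.0% in control and 68.0 to 77.3% in the knockdowns, and in periodic sequence without one it was 96.3% and 94.6 to 97.9%. Bases of the knockdown members outside control peaks had 92.0% of words found once after siDAXX, 94.7% after siHIRA and 90.3% after siHJURP, against 81.1, 80.6 and 78.6% for the bases shared with control. Copies in the gaps of the assembly are not counted here. The authors' filter on mapping quality favours sequence found once, so high shares can be set in part by that filter. The share over all known band sequence was not counted.

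Next, the base positions of the sets were compared. Of the control cover in the bands, 85.4% was also covered after siDAXX, 78.5% after siHIRA, 70.0% after siHJURP, 34.8% after siHIRA_DAXX and 52.9% after siHJURP_HIRA. Outside the bands the values were 87.3, 80.5, 73.0, 43.3 and 54.9% in the same order, somewhat higher in each. Counted as peaks, 90 of the 107 control members shared a base with a siDAXX member (84.1%), 88 with siHIRA (82.2%), 84 with siHJURP (78.5%), 74 with siHIRA_DAXX (69.2%) and 90 with siHJURP_HIRA (84.1%). Of the 301 control peaks outside the bands, 86.7% shared a base with siDAXX, 82.7% with siHJURP, 76.7% with siHIRA_DAXX and 83.7% with siHJURP_HIRA, and the siHIRA share lay between the first and the last of these. The 5 comparisons share the control list.

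Seen from the knockdown, 129 kb of the siDAXX cover lay outside control peaks (50.7%), 76.4 kb after siHIRA (39.8%), 60.9 kb after siHJURP (37.2%), 32.6 kb after siHIRA_DAXX (38.9%) and 43.9 kb after siHJURP_HIRA (36.1%). Of 179 siDAXX members 89 shared a base with a control peak (49.7%), against 31.4% of all siDAXX peaks. After siHIRA it was 109 of 194 (56.2%, all peaks 43.6%), after siHJURP 90 of 163 (55.2%, all peaks 33.8%), after siHIRA_DAXX 132 of 248 (53.2%, all peaks 50.1%) and after siHJURP_HIRA 174 of 360 (48.3%, all peaks 35.4%). The share of members that met a control peak was above that of all peaks of the set in 4 lists. After siHIRA_DAXX it was near that of all peaks, which lay inside the Wilson interval of the members (47.0 to 59.3%).

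The share outside control peaks differed between the sequence kinds. In periodic sequence with a box it was 14.1% after siDAXX, 2.66% after siHIRA and 13.1% after siHJURP. In periodic sequence without a box it was 61.8, 54.7 and 50.9%, in other sequence 68.9, 58.8 and 55.9%, and in the CATTC kind 36.1, 22.3 and 24.2%. For the double knockdowns the periodic kind with a box had 5.13% after siHIRA_DAXX and 4.95% after siHJURP_HIRA, and the CATTC kind 54.7 and 52.4%. The control cover of the CATTC kind was retained at 82.2 to 92.8% in all 5 knockdowns, including 90.7% after siHIRA_DAXX, where the periodic kind with a box was retained at 38.7%.

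The sets were also compared pair by pair. Of the siHJURP cover, 90.8% was also in siDAXX and 80.3% in siHIRA, but 62.8% in control. Of the siHIRA cover, 88.2% was in siDAXX and 60.2% in control. Of the siHIRA_DAXX cover, 84.8% was in siDAXX, 77.7% in siHIRA, 76.4% in siHJURP_HIRA and 61.1% in control. The siDAXX list is the largest, and the share of a list found in another moves with the size of that other list. In the reverse direction, 66.4% of the siDAXX cover was in siHIRA, 58.4% in siHJURP, 49.3% in control, 39.6% in siHJURP_HIRA and 27.9% in siHIRA_DAXX. The siHIRA and siHJURP covers were likewise found less in the double knockdowns than in control, at 46.5 and 50.1% in siHJURP_HIRA and 33.9 and 36.6% in siHIRA_DAXX. Of the siHJURP_HIRA cover, 83.0% was in siDAXX, 63.9% in control and 52.7% in siHIRA_DAXX.

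Joining overlapping or touching members of the 6 lists gave 303 sites over 319 kb, with a median width of 459 bases. All 6 sets covered 57 sites (18.8%), which held 78.8% of the control cover and 52.0 to 63.3% of that of each knockdown. A further 29 sites were in 5 sets, 30 in 4, 33 in 3, 58 in 2 and 96 in 1. Of the sites in 1 set, 42 were in siHJURP_HIRA, 18 in siDAXX, 13 in siHIRA, 10 in siHIRA_DAXX, 8 in control and 5 in siHJURP. The sites of 1 set had a median width of 232 bases and those of all 6 sets of 1231 bases. A site joins the members of every list that covers it, so a difference in this direction was built in. Many sites of 1 set also came from the double knockdowns, whose peaks were narrow.

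Sites were sorted by the kind that held most of their bases. A site of the kind with a box need not hold one itself, as at chr14:19011321-19011677, which held none. Of 56 sites of the periodic kind with a box, 25 were in all 6 sets (44.6%) and 39 had a control peak (69.6%). Of 69 periodic sites without a box, 5 were in all sets (7.25%) and 8 had a control peak (11.6%). Of 109 sites of other sequence, 15 were in all sets (13.8%) and 34 had a control peak (31.2%), and of 69 CATTC sites the numbers were 12 (17.4%) and 15 (21.7%). The 32 sites found in both double knockdowns and nowhere else were mostly of the CATTC kind (27), 24 of them on chromosome 4, and had a median width of 168.5 bases.

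**Figure D5:**
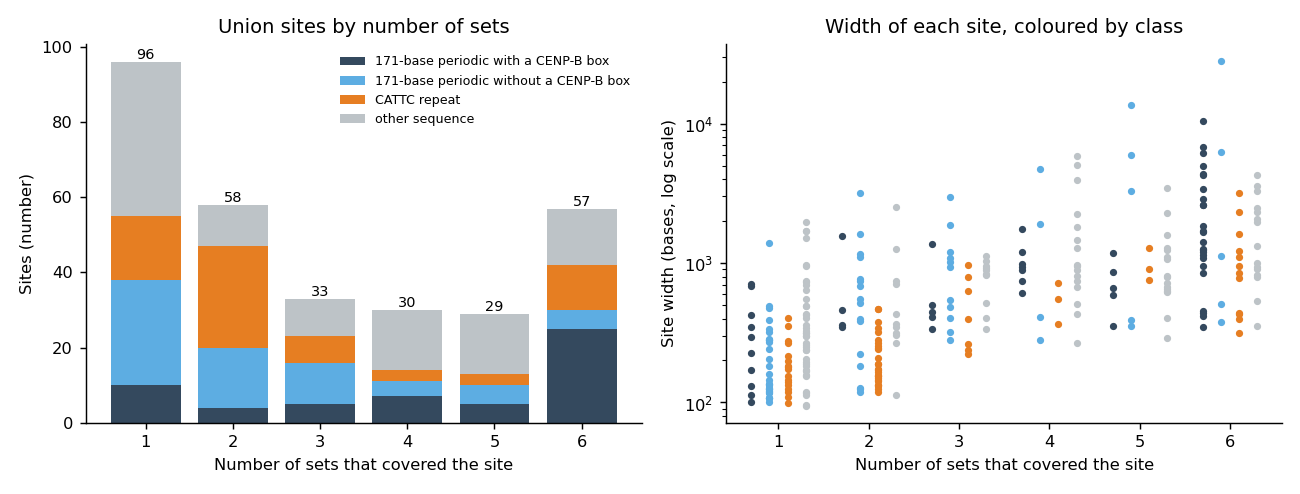
Left, number of union sites by the number of merged sets that covered them, coloured by sequence kind; right, width of each site in bases on a log scale against the same number. Sites in all 6 sets number 57, of which 25 are periodic with a CENP-B box, and the 96 sites in 1 set have a median width of 232 bases. Each site joins the members of the sets that covered it, so width can grow with their number.

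Within the 57 sites of all sets the cover was broken up differently. Control had 68 peaks there, siDAXX 66, siHIRA 89, siHJURP 80, siHIRA_DAXX 131 and siHJURP_HIRA 157. The median share of a site that was covered was 91.2% in control, 96.6% after siDAXX, 82.9% after siHIRA, 87.6% after siHJURP, 45.6% after siHIRA_DAXX and 58.5% after siHJURP_HIRA. A single peak lay in 31 of these sites after siHIRA_DAXX and in 25 after siHJURP_HIRA, against 47 in control. Single sites departed widely from these medians, and the cover of a site ran from 3.78 to 100% after siHIRA_DAXX and from 7.85 to 99.5% after siHJURP_HIRA.

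The widest site was chr7:61532456-61560472, 28017 bases on the q side, 478 kb from the gap and in no annotated gene. It is of the periodic kind without a CENP-B box, and its middle is printed above as chr7:61553136-61553435. Control covered 22184 bases of it in 2 peaks, which were the 2 widest control members (13101 and 9083 bases). After siDAXX a single peak of 27995 bases, the widest member of any set, ran over nearly all of it. After siHIRA it was 21959 bases in 6 peaks, the widest of them 9784 bases and the widest siHIRA member. After siHJURP 12986 bases were covered in 4 peaks, after siHIRA_DAXX 3814 in 11 and after siHJURP_HIRA 12068 in 30. The siDAXX list covered the most of the site and siHIRA_DAXX the least.

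The next widest site of all sets, chr2:92315696-92326170 (10475 bases), ended at the gap edge and is the source of chr2:92324276-92324575 and of the repeat units above. Control covered 10388 bases, siDAXX 10474, siHIRA 10095, siHJURP 10315, siHIRA_DAXX 5621 in 15 peaks and siHJURP_HIRA 9679 in 7. It includes the third widest control member, of 6921 bases. Cover there was nearly complete in all but siHIRA_DAXX. The neighbouring site chr2:92304880-92310983, with 17 boxes, had the widest siHJURP member (5579 bases) and 6059, 6061, 5390, 6000, 3262 and 4722 bases in control, siDAXX, siHIRA, siHJURP, siHIRA_DAXX and siHJURP_HIRA.

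At chr7:61079030-61085835, 24.7 kb from the gap, the whole 6806 bases were a control peak. The cover was 4056 bases after siDAXX, 4374 after siHIRA, 2342 after siHJURP, 1744 after siHIRA_DAXX and 1596 after siHJURP_HIRA, so every knockdown list had less there than control. The array chr10:38815678-38818839 held the widest member of both double knockdowns, of 3157 bases in siHIRA_DAXX and 3146 in siHJURP_HIRA. The array was covered almost whole in all 6 sets, with 3108 bases in control and 3128, 3130 and 3142 after siDAXX, siHIRA and siHJURP.

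Sites of all 3 single knockdowns with no control base numbered 29, over 60.8 kb, and held 22.2 to 23.2% of the band cover of each single knockdown. Of these, 8 were on chromosome 21, 6 each on chromosomes 15 and 19, 4 on chromosome 17 and 3 on chromosome 4. By kind, 19 were other sequence, 7 periodic without a box, 2 CATTC and 1 periodic with a box. The widest was chr19:24555218-24568746 (13529 bases, p side, 63.0 kb from the gap), where siDAXX covered 12484 bases in 1 peak, siHIRA 12463 in 5, siHJURP 10411 in 4, siHIRA_DAXX 1484 in 4 and siHJURP_HIRA 3329 in 10. Its middle is printed above as chr19:24560010-24560309. All 5 knockdown lists had a peak where control had none.

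The next was chr19:24582759-24588733 (5975 bases), with 5975 bases after siDAXX, 3005 after siHIRA, 634 after siHJURP, 522 after siHIRA_DAXX and 179 after siHJURP_HIRA. The third was chr15:20569277-20574312 (5036 bases), with 5036, 3770 and 1532 bases in the single knockdowns, 1973 after siHIRA_DAXX and none after siHJURP_HIRA. Neither lies in an annotated gene. In both the siDAXX list covered the most and siHJURP the least of the single knockdowns.

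Sites of control with no knockdown base numbered 8 over 7.30 kb, and the widest 3 overlapped genes. At chr17:25620322-25622294 a peak of 1973 bases covered the start of WSB1, a protein-coding gene for a ubiquitin ligase subunit. At chr17:25659238-25660945 one of 1708 bases covered the start of the lncRNA gene ENSG00000266313. At chr10:38264067-38265567 one of 1501 bases lay inside ZNF25, a zinc finger gene on the minus strand, at its 5′ end. All 3 of these overlapped an exon. The other 5 were 172 to 727 bases wide.

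The genes under the members were then counted, with the joined members spanning 319 kb of the 23.1 Mb of known band sequence. Of 681 annotated genes in the bands, 86 of them protein-coding, 14 overlapped a member of any set and 3 of those were protein-coding, namely ZNF25 and WSB1 in control alone and TPTE, which encodes a membrane phosphatase-like protein of testis, in siHIRA alone (0.701 kb, no exon). From 16.9 to 24.2% of the members of a set lay in a gene. The share of all known band sequence that lies in genes was not counted, so neither value is read as high or low. The lncRNA gene ENSG00000290523 on chromosome 21 (chr21:11020842-11098980) held the most, 10.8 kb in control, 25.9 kb after siDAXX, 21.4 kb after siHIRA, 17.6 kb after siHJURP, 9.65 kb after siHIRA_DAXX and 14.1 kb after siHJURP_HIRA, of which exons took 0.410 to 1.24 kb. It overlaps BAGE2, a pseudogene of the BAGE family of tumour antigens, where the cover was 8.38, 17.3, 17.1, 12.3, 6.16 and 9.29 kb. Both genes are on the minus strand and overlap each other, so that a peak can count in both.

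HERC2P3 (chr15:20584748-20711433, minus strand), named as a pseudogene of HERC2 and annotated as a lncRNA, held 2.91 kb in control, 15.1 kb after siDAXX, 10.6 kb after siHIRA, 10.9 kb after siHJURP, 2.13 kb after siHIRA_DAXX and 4.24 kb after siHJURP_HIRA. All control members of chromosome 15 were in it. MIR663AHG (chr20:26148453-26232182, minus strand), the host gene of a microRNA, held 1.73 kb in control and 3.86, 2.96 and 2.52 kb in the single knockdowns. The lncRNA gene ENSG00000273840 on chromosome 21 had no control base, and 2.52 kb after siHIRA, 0.170 kb after siHIRA_DAXX and 0.154 kb after siHJURP_HIRA. ENSG00000287122 on chromosome 15 had 1.71 kb after siDAXX and 0.748 kb after siHIRA. ENSG00000287211 and ENSG00000277693 were each in 1 set, with 0.433 and 0.387 kb. Most of the cover in genes was intronic.

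The choice by band keeps the members around the assembly gaps, so their distances are given as a description. The median distance from the gap edge was 28.2 kb in control, 44.6 kb after siDAXX, 76.4 kb after siHIRA, 36.1 kb after siHJURP, 50.1 kb after siHIRA_DAXX and 109 kb after siHJURP_HIRA. The farthest member lay at 889 kb in control and at 1450 kb after siHJURP_HIRA. Members within 100 kb of the gap held 59.3% of the control bases, 60.9% after siHJURP and 49.5 to 50.3% in the other lists. On the p side lay 75.8 kb of the control cover and on the q side 71.3 kb, and after siDAXX 130 and 125 kb. The p side held more in the other lists, with 104 against 87.8 kb after siHIRA, 99.2 against 64.7 kb after siHJURP, 58.4 against 25.4 kb after siHIRA_DAXX and 75.8 against 45.9 kb after siHJURP_HIRA. Chromosome 19 had added cover on both sides, with 2.25 kb in control and 28.6 kb after siDAXX on the p side and 6.20 and 23.2 kb on the q side. On chromosome 17 the sides differed, since siHJURP covered 8.35 kb against 7.56 kb in control on the p side but 0.959 against 4.72 kb on the q side.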

How the data were processed

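Peaks came from native ChIP of CENP-A (20 ChIP and 20 input libraries, 6 conditions). The authors used Trimmomatic for trimming and Bowtie2 2.2.6 for alignment to hg19, filtered reads by mapping quality, called peaks with MACS against input and merged the replicates. Merged peaks found in 3 or more replicates were kept; the rule for the double knockdowns is not given in the sources used here. SAMtools and deepTools are also named in the submitters' processing notes. The deposited values are peak starts and ends (base positions, the only unit used), with no score, count or p-value; all value columns were assigned to a condition.

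End minus start was summed for coverage, and lists were intersected base by base (Python 3.11.15, numpy 2.4.6); Wilson 95% intervals came from scipy 1.17.1. Sequence was read from GRCh37 with pysam 0.24.0, 75-base words were counted with numba 0.67.0, and genes are from GENCODE release 44 lifted to GRCh37. Periodic means equal bases at a shift of 171 bases, with 165 to 177 allowed. Scripts were tested on simulated intervals and repeats. The rule by which whole peaks are called periodic also calls some pentamer arrays so, which is why peaks with CATTC runs were counted separately. Named regions were the 3 widest control members, the widest member of each knockdown, and the 3 widest sites of all 6 sets, of all 3 single knockdowns without control and of control alone; of the genes, up to 12 were named, protein-coding first, then by number of sets and bases. Printed sequences were from the widest sites of all 6 sets and the sites with the most CENP-B boxes, at most 6, with 3 more added. Peak width, merging, membership, chromosome and identity alternatives were tried. The band limits, members and lists were chosen with earlier results of these data known. No sequence of chromosome 8 is printed.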

Additional observations from a re-analysis of the deposited data

How the results depend on the processing

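No paired analysis was possible because each condition is 1 merged list, with no replicate in it to leave out. A ratio was counted as moved at 1.5 times, a share when it left its Wilson interval. For shares of bases that interval was computed as if the share were one of peaks. It is then only a rule for sorting values, since bases are not counted peaks. Of 157 alternative values, 118 stayed, 33 moved and 6 crossed a ratio of 1. Some of those that stayed could not move, such as the values with peaks wholly inside a band, since no member crossed an edge. The count is thus not a measure of how stable the results are.

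Counting peaks in place of bases put the double knockdowns above control, at 2.32 times for siHIRA_DAXX and 3.36 times for siHJURP_HIRA; merging peaks within 1000 bp put siHJURP_HIRA at 1.13 and leaving out the widest 1% of peaks (13 peaks, 5 of them in control and none in siHJURP_HIRA) at 1.16. Peaks of 500 bp or wider gave 0.219 and 0.350. Without chromosomes 15, 19 and 21, added after seeing the data, siHIRA was at 0.940 and siHJURP at 0.824. In the other direction, leaving out the widest 1% of peaks put siHIRA at 1.68 and siHJURP at 1.56. Counting peaks put them at 1.81 and 1.52, and leaving out chromosome 7 put siHJURP at 1.33. The main values were 1.30 and 1.11, so these higher ratios were counted as stayed by the 1.5 times rule. The share of a set's cover in the bands was 16.3% for siHIRA_DAXX and 10.0% for siHJURP_HIRA with peaks of 500 bp or wider, 20.6% for control and 14.1% for siDAXX without the widest 1%, and 17.3, 24.4 and 22.8% for siHJURP, siHIRA_DAXX and siHJURP_HIRA by peaks. The widest 1% was taken from the members alone, so that share could only fall, and only in sets that lost a member. Control cover retained was 78.5% for siHJURP, 69.2% for siHIRA_DAXX and 84.1% for siHJURP_HIRA by whole peaks, 78% for siHJURP without chromosome 7, 15.9 and 30.3% for the double knockdowns at 500 bp or wider, and 46.9 and 67.2% with peaks merged. Cover outside control peaks was 46.8 and 51.7% for them by whole peaks and 27.4 and 13.5% at 500 bp or wider. The 303 sites became 163 when joined within 1000 bp and 142 from peaks of 500 bp or wider. Periodic shares at 45% identity were 57.5% in control, 47.8% for siDAXX, 53.8% for siHIRA and 51.6% for siHJURP, and at 60% identity 12.6, 12.5, 14.5, 14.8, 16.7 and 23.5% from control to siHJURP_HIRA. The cause was not tested. The 20 ratios by sequence kind at 50% identity per block, also added, all stayed. Those of the CATTC kind could not change, since that kind is called without the identity limit. Depth is not given in the lists, so that a site without a peak is one not called there. The paper states that depth differed between replicates. It reports a check at equal depth with similar results, for peaks outside the centromeres, and no such check was made for the members.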
